A study of Mus musculus with 12 samples.

Results

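The loss of Pbrm1 was followed in the spleen germinal center B cells that the labels call CC, over every autosomal accessible region of the deposited table. The members are the 67159 autosomal peaks of 68689 in all, each 501 bp long, and they were compared between 3 HOMO CC and 3 WT CC libraries, which are 6 of the 12 libraries of the series. WT mice were C57BL/6, 8 to 10 weeks old and Pbrm1+/+, and HOMO mice were of the same strain and age range and Pbrm1-/-. The other 6 libraries come from a population labelled CB of the same genotypes. The labels do not spell out CB or CC, although the series title speaks of centrocytes. The count columns carry the name Pbrm1AID, which no source used here explains, so the promoter or cell type that drives the deletion is not known. No label says that the libraries of a group came from separate mice, so p-values measure the spread between libraries, part of which may be technical.

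Pbrm1 encodes a bromodomain subunit of PBAF, a SWI/SNF complex that uses ATP to slide or evict nucleosomes. In a germinal center, B cells divide and mutate their antibody genes in the dark zone, and they are selected for affinity by T cells in the light zone, where centrocytes choose between return, memory and plasma cell fates. ATAC-seq reports where DNA is open: the Tn5 transposase cuts accessible DNA, and the cuts are counted in peaks, with promoters and enhancers among them. Omni-ATAC is a version of it with less mitochondrial DNA.

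Of the called losses, 60.4% lay at gene ends, within 1000 bp of either end of a protein-coding gene. Gene ends are 15681 of all 67159 peaks. A smaller part of the losses, 23.2%, overlapped a promoter window, as did 9621 of all peaks. Some of these promoters are shown first. These are RefSeq windows on GRCm38.p6, from 250 bases before to 50 after a gene's start, 300 bases 5′ to 3′ on the gene's strand, and capitals mark each CG dinucleotide. The first group holds promoters under peaks that were less accessible in HOMO CC, and the 2 last ones lie under peaks that were more accessible. The Inka2 window is chr3:105705208-105705507 (plus strand), Arhgef39 chr4:43508698-43508997 (minus), Xaf1 chr11:72301379-72301678 (plus), Cdkn2a chr4:89294570-89294869 (minus), Rsad2 chr12:26456403-26456702 (minus), Itga4 chr2:79255176-79255475 (plus) and Lhx3 chr2:26208200-26208499 (minus).
Inka2: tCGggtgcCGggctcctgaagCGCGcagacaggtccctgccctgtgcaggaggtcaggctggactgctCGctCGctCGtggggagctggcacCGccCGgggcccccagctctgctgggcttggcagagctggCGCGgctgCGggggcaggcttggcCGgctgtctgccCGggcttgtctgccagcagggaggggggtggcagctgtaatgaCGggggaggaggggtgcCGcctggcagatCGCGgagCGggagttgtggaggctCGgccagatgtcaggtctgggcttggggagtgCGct
Arhgef39: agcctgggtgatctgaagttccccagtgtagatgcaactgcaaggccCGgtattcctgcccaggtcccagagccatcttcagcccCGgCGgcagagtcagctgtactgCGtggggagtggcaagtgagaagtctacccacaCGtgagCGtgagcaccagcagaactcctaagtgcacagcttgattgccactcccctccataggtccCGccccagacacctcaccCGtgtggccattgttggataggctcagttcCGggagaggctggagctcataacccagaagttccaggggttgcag
Xaf1: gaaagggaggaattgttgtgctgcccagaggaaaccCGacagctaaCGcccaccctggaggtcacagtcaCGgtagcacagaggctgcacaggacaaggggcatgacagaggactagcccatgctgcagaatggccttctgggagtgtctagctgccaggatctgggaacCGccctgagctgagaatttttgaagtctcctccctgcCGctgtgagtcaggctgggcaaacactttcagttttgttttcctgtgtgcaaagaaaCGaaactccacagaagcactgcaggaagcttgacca
Cdkn2a: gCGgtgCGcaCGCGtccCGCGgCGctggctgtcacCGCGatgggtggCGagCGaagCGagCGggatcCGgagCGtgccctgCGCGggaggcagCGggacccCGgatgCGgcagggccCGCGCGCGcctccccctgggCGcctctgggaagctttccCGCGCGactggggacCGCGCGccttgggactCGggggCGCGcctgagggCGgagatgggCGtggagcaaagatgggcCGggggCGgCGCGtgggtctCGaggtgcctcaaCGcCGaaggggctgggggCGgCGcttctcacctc
Rsad2: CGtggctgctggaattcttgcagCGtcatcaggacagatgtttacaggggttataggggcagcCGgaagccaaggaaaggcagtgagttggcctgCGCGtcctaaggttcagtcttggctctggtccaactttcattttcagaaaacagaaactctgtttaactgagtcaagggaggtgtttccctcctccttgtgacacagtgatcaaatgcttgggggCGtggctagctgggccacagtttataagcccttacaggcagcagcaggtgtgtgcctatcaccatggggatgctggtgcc
Itga4: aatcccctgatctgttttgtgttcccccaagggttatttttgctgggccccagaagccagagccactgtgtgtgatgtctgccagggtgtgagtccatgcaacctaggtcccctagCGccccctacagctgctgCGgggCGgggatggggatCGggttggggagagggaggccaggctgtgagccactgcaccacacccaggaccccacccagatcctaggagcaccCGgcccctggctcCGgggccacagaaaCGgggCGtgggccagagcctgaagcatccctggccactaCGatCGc
Lhx3: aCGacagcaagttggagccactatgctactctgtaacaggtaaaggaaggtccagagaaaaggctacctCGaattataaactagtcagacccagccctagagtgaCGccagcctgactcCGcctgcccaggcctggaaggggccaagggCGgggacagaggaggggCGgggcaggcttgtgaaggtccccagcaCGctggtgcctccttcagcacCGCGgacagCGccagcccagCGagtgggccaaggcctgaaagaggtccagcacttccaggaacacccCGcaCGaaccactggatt

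The 7 windows differ widely in base composition. Cdkn2a, whose window holds 45 CG dinucleotides and has a CpG observed-to-expected ratio of 1.04, and Rsad2, with 6 of them and a ratio of 0.291, were both less accessible. Over the 342 promoter windows under peaks called lower, the median GC content was 63.7% and the median CpG ratio 0.715, against 61.7% and 0.775 over the 9425 windows under any autosomal peak and 53.0% and 0.389 over all 31396 autosomal windows of the table. The 21 windows under peaks called higher had medians of 57.3% and 0.36, and they varied as well. Prkcz (CpG ratio 0.824) and Galnt9 (1.06), called higher and not printed above, had higher ratios than Itga4 (0.322) and Lhx3 (0.466). Called gene-end peaks overlapped a window less often than gene-end peaks in general: 283 of 920 called, beside 7583 of all 15681. Gene-end peaks lie near either end of a gene, whereas a window covers only the start. The promoter table may not cover every gene, but the same table was used for both sets. The cause of the lower share was not tested.

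A set of 12 motifs was searched on both strands, and the shares of all 31396 windows that hold them were as follows. They were CRE (TGACGTCA, 1.83%), AP-1 (TGACTCA, 5.26%), E-box (CACGTG, 7.14%), ETS (CCGGAAG, 9.0%), GC box (GGGCGGG, 25.8%), CCAAT box (CCAAT, 37.3%), NRF1 (GCGCATGCG, 1.74%), a CpG palindrome (TCTCGCGAG, 0.643%), TATA box (TATAAA, 13.6%), an ETS-IRF composite (GGAANNGAA, 8.13%), an interferon response element (GAAANNGAA, 8.52%) and NF-kB (GGGACTTTC, 0.36%). The composite and the interferon response element can overlap, since both end in GAA. In the windows shown, Rsad2 matched AP-1, ETS, the TATA box and the interferon response element, Xaf1 matched AP-1, Arhgef39 the E-box and GC box, Itga4 the GC box, and Lhx3 the GC box and TATA box. Inka2 and Cdkn2a matched none. ETS letters were in 12% of the windows under peaks called lower and in 17.8% of windows under any peak, NRF1 letters in 0.877% and 3.65%, and CRE letters in 1.17% and 3.28%. The order was the other way for NF-kB letters (1.17% and 0.393%, the first being 4 windows) and AP-1 letters (4.09% and 3.23%). Restricted to peaks of similar level (log2 CPM of 2 to 5, where CPM is counts scaled to library size), the ETS shares were 12% of 283 windows called lower and 15.5% of 3932 not called, the NRF1 shares 0.707% and 3.51%, and the NF-kB shares 1.41% and 0.381%. At that level the median GC content was 63.0% in windows called lower and 59.3% in those not called, and the median CpG ratio 0.699 and 0.722. A match describes letters in the window and not a bound site, and the shares and medians were not tested.

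Losses outnumbered gains. At an adjusted p under 0.05, 1471 peaks (2.19%) were called lower in HOMO CC and 392 (0.584%) higher, by edgeR's quasi-likelihood test with Benjamini-Hochberg adjustment, so that 2.77% were called in either direction. An unadjusted p under 0.05 was reached by 6715 peaks lower (10.0%) and 4851 higher (7.22%). The called changes were moderate: the median log2 fold change was -0.81 in the peaks called lower and 0.62 in those called higher, and 374 and 87 of them changed at least 2-fold. The 6 libraries separated without overlap in 1461 of the peaks called lower and 389 of those called higher, where over all peaks 11.3% separated with HOMO lower and 9.79% with HOMO higher. The typical standard error fell from 0.36 log2 units in peaks below a log2 CPM of 1 to 0.09 in those of 6 or more.

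A single library bears heavily on these numbers. Without HOMO CC 2 only 17 peaks were called, 11 lower and 6 higher, and all 17 were also called in each of the other 5 fits that leave out a CC library. Without HOMO CC 1, the shallowest library, 2479 were lower and 888 higher. Without WT CC 1, WT CC 2 or WT CC 3 the counts were 277 and 48, 477 and 119, and 828 and 176, and without HOMO CC 3 they were 175 and 41. The 17 peaks that stayed called lie at Wdfy4 (2 peaks), 3425401B19Rik, Arhgap22, Bmpr1a, Zfp13, Zfp825, Inka2, Pigz, Ccrl2, Syndig1l, Rhbg, Nfkb1, Nsun3, Stmn3, Hivep3 and Prex1. Any other call named below was lost in at least 1 of these fits.

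Library totals in the peaks ran from 6431354 (HOMO CC 1) to 38649269 (HOMO CC 3) counts, with 12434503, 15981746 and 30178952 in WT CC 1 to 3 and 26724546 in HOMO CC 2. Chi-square per degree of freedom between CC replicates was 2.28 to 6.61, so the replicates differed by more than counting noise. On the X chromosome, whose 1530 peaks are not members, an Xist peak stood at 0.782 CPM in WT CC 2 and at 4.73 to 16.7 in the other 5 libraries, while a second Xist peak did not set WT CC 2 apart (5.06, and 4.88 to 7.45 in the others).

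**Figure D1:**
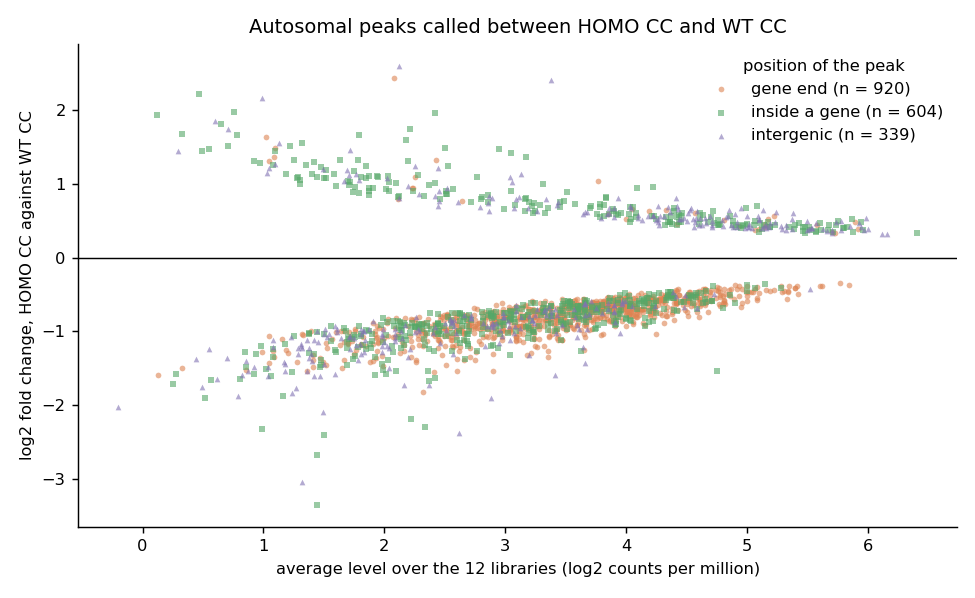
Each point is an autosomal peak called at an adjusted p under 0.05, plotted by its average level over 12 libraries (x axis, log2 CPM) and its log2 fold change between HOMO CC and WT CC (y axis), with symbols for gene ends, peaks inside a gene and intergenic peaks. Below the zero line lie 1471 peaks, many of them gene ends at a log2 CPM between 2 and 5, and above it 392.

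As a check of the label, the gene-end peaks of B cell identity genes were open in all CC libraries. Pax5 stood at 35.1 to 36.7 CPM in WT and 35.9 to 43.2 in HOMO, and S1pr2, a receptor that confines germinal center cells, at 34.5 to 44.7 and 37.7 to 48.6. Neither passed the threshold between genotypes (adjusted p of 0.44 and 0.599). The levels of Bcl6 (18.2 to 26.9 in WT, 17.9 to 28.8 in HOMO) and Cd86 (16.5 to 19.2 and 18.4 to 19.2) were lower. Defining markers of other lineages were weak in part, with Cd14 at 1.41 to 5.12 CPM and the cytotoxic Prf1 at 1.03 to 3.67, but the gene ends of Cd3d (20.1 to 23.8), Cebpb (38.5 to 50.3) and Gfi1b (33.2 to 42.2) were open too. Cd3d stood within the range of Bcl6, and Cebpb and Gfi1b stood near Pax5, so these levels separate the lineages only in part. WT CC was also compared with WT CB at the zone lists. Of 271 light zone peaks, 12 (4.43%) were higher and 5 (1.85%) lower in WT CC than in WT CB, and of 249 dark zone peaks 20 (8.03%) and 10 (4.02%), beside 3.39% and 2.1% of all peaks. The dark zone list had the larger share of peaks higher in CC, so these lists did not separate CC from CB as light from dark zone.

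Pbrm1 itself was measured first among the genes. The peak at its start (chr14:31019227-31019727) held 24.5, 32.3 and 39.5 CPM in WT CC and 28.4, 26.0 and 36.2 in HOMO CC. The groups overlapped, and the log2 fold change was -0.09 ± 0.18 (SE, adjusted p = 0.855). A second, weaker peak inside the gene held 3.42, 1.14 and 2.88 CPM in WT and 4.14, 3.35 and 4.12 in HOMO (adjusted p = 0.347). Accessibility of the start does not check a deletion elsewhere in the gene.

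The losses of smallest p began with peaks near Pbrm1 on chromosome 14. Inside Wdfy4, which serves antigen cross-presentation in dendritic cells, a peak (chr14:33189744-33190244) held 36.9, 33.0 and 40.3 CPM in WT CC and 12.1, 11.7 and 13.8 in HOMO CC. The lowest WT library was far above the highest HOMO library, and the log2 fold change was -1.54 ± 0.14 (SE, adjusted p = 1.61e-05). Inside 3425401B19Rik (chr14:32694296-32694796) the values were 3.96, 4.27 and 4.48 in WT and 0.0, 0.372 and 0.555 in HOMO, with no overlap and a log2 fold change of -3.35 ± 0.35 (adjusted p = 0.000162). Near Arhgap22, a GTPase-activating protein for Rac (chr14:33205317-33205817), they were 4.81, 4.57 and 4.34 in WT and 0.591, 0.335 and 0.713 in HOMO (log2 fold change -3.04 ± 0.33, adjusted p = 0.000165). Colq, the collagen tail of acetylcholinesterase, had a peak (chr14:31535661-31536161) with 3.03, 3.61 and 4.87 CPM in WT and 1.04, 0.484 and 0.581 in HOMO (log2 fold change -2.68 ± 0.37, adjusted p = 0.0031).

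Gains sat in the same stretch. A second peak of Wdfy4 (chr14:33099036-33099536) rose from 2.25, 1.44 and 2.12 CPM in WT to 7.54, 8.08 and 7.08 in HOMO, a log2 fold change of 1.96 ± 0.23 (adjusted p = 0.000459). Near Wapl, the cohesin release factor (chr14:34752325-34752825), WT libraries held 2.02, 1.69 and 5.07 and HOMO libraries 15.5, 16.7 and 17.5 (log2 fold change 2.41 ± 0.35, adjusted p = 0.00604). Near Fam25c (chr14:34363642-34364142) they held 0.854, 0.421 and 2.06, and 7.25, 7.67 and 7.56 (log2 fold change 2.60 ± 0.39, adjusted p = 0.00549). The groups did not overlap in any of the 3 peaks. Within 6 Mb of Pbrm1, a distance chosen after earlier results were known, 35 of 453 peaks (7.73%) were called lower and 9 (1.99%) higher, and 25 of these 44 calls were at least 2-fold. On the rest of chromosome 14 the shares were 2.06% and 0.576% of 2084 peaks. Of the 20 largest called fold changes on the autosomes, 13 lay in this stretch. The counts elsewhere hardly depended on it, with 1436 lower and 383 higher among the 66706 peaks outside. The same peaks differed in CB: the Wdfy4 loss had a log2 fold change of -1.86 there, 3425401B19Rik -3.76, Colq -2.91, Wapl 2.49 and Fam25c 2.94. Whether the loss of Pbrm1 or other differences of the chromosome that carries the allele set these peaks cannot be told apart with these genotypes.

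Outside the 6 Mb around Pbrm1 the losses of smallest p lay at genes of varied roles. At Zfp13, a zinc finger gene (chr17:23598844-23599344), WT CC held 11.9, 13.9 and 16.7 CPM and HOMO CC 4.44, 6.07 and 5.73, with no overlap and a log2 fold change of -1.35 ± 0.18 (adjusted p = 0.00191). At Inka2, an inhibitor of the kinase PAK4 (chr3:105705043-105705543, the first promoter shown), the values were 17.9, 17.2 and 16.9 in WT and 9.61, 8.15 and 7.74 in HOMO (log2 fold change -1.05 ± 0.15, adjusted p = 0.0031). Every HOMO value was below every WT value. Arhgef39, a guanine nucleotide exchange factor (chr4:43508537-43509037, the second promoter), held 13.6, 12.2 and 12.4 in WT and 6.95, 5.14 and 5.89 in HOMO (log2 fold change -1.12 ± 0.17, adjusted p = 0.0053). The other 5 losses, at Zfp825, Tnk2 (a tyrosine kinase downstream of Cdc42), Nrarp (a feedback inhibitor of Notch signalling), Pigz (an enzyme of GPI anchor synthesis), Mmp14 (a membrane metalloproteinase, on chromosome 14 but 23.3 Mb from Pbrm1), had log2 fold changes between -2.09 (Nrarp) and -1.02 (Zfp825).

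Among the gains outside that stretch, a peak inside Nfkb1, a subunit of NF-kB (chr3:135585447-135585947), held 4.35, 4.51 and 5.01 CPM in WT CC and 13, 11.9 and 11.5 in HOMO CC. The groups were far apart, with a log2 fold change of 1.37 ± 0.17 (adjusted p = 0.000856). Inside Nsun3, a mitochondrial tRNA methyltransferase (chr16:62758186-62758686), WT libraries held 3.18, 3.73 and 4.94 and HOMO libraries 9.76, 12 and 10.4 (log2 fold change 1.42 ± 0.19, adjusted p = 0.00191). Inside Prex1, a Rac exchange factor (chr2:166632511-166633011), they held 2.10, 2.35 and 2.35, and 6.95, 5.51 and 6.92 (log2 fold change 1.49 ± 0.23, adjusted p = 0.00541). Inside Csk, the kinase that restrains Src family kinases (chr9:57638564-57639064), the levels were far higher and the change smaller: 45.3, 48.2 and 42.0 in WT and 62.3, 65.6 and 66.7 in HOMO, a log2 fold change of 0.53 ± 0.08 (adjusted p = 0.00549). Map4k4 (a kinase of stress signalling, 0.70), Dvl1 (a transducer of Wnt signals, 2.43), Hivep3 (a zinc finger factor, 1.48), Ccnc (cyclin C of the Mediator kinase module, 1.09) and Efcab11 (0.81) were the other gains, given as log2 fold changes.

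**Figure D2:**
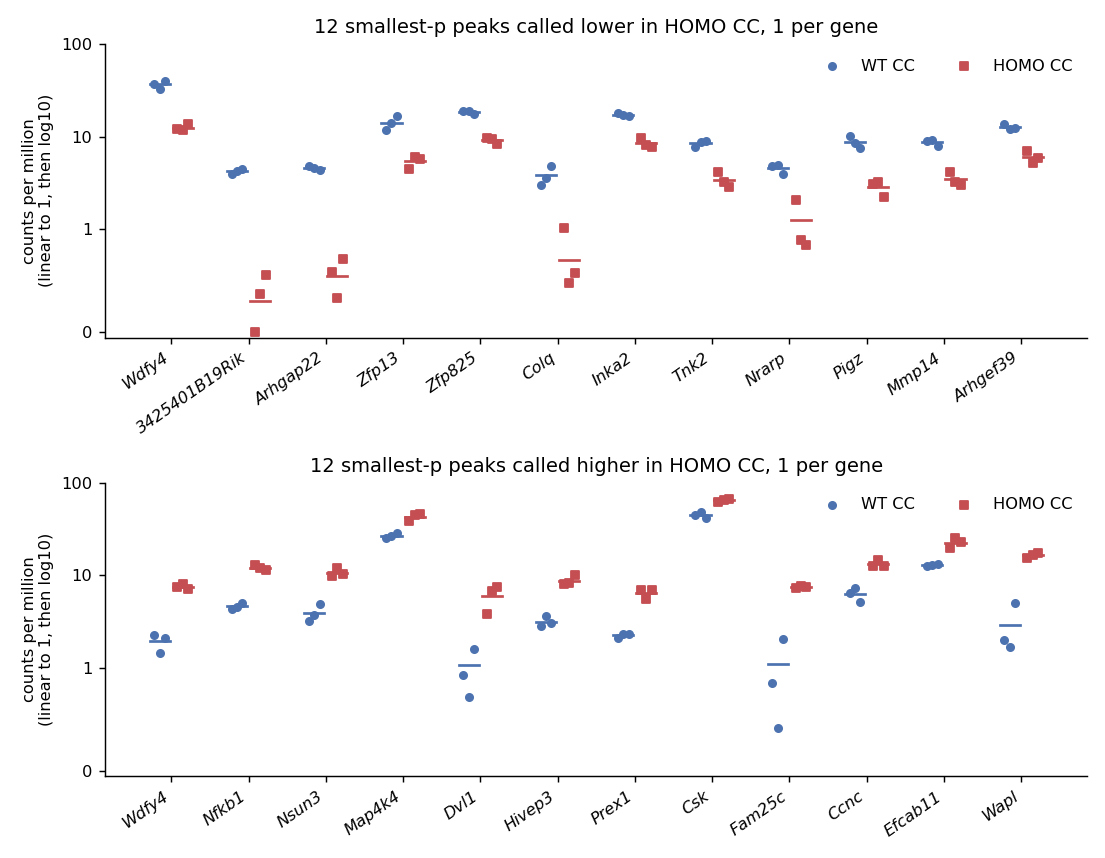
CPM in each CC library (y axis, linear to 1 and log10 above) at the 12 losses (top) and 12 gains (bottom) with the lowest p, each from another gene, with circles for WT CC, squares for HOMO CC and lines for the mean of 3 libraries. In all panels the HOMO points lie wholly below (top) or above (bottom) the WT points, which the naming rule required; 3425401B19Rik reaches 0 in HOMO CC 1.

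Several genes lost more than a single peak. Ccser2, 6 Mb or less from Pbrm1, had 7 of its 13 peaks called lower and 1 higher, and Colq 4 of 5. Outside that stretch Trim2, a ubiquitin ligase, had 4 of 21, Slc2a3, a glucose transporter, 4 of 10, Gfi1, a transcriptional repressor of blood cells, 4 of 10, and Prr36 3 of 3. Each of these genes had all its called peaks lower except Ccser2. Some of these peaks lie side by side, as at Gfi1 (chr5:107723826-107726383) and Prr36 (chr8:4212780-4214673), and are not independent measurements. The Gfi1 start (chr5:107725231-107725731) held 28.0, 25.2 and 37.5 CPM in WT and 18.9, 18.8 and 21.1 in HOMO, a log2 fold change of -0.63 ± 0.13 (adjusted p = 0.0168). In all, 15 genes had at least 3 peaks called lower and 4 had at least 3 called higher: Tubgcp3, of the gamma-tubulin complex (3 of 6), Ccnd3, encoding cyclin D3 (3 of 19), and the intervals assigned to Chrna9 (3 of 14) and Rpia (3 of 28, and 1 lower). Genes here are the nearest protein-coding span within 50000 bp, which does not show that a peak acts on them.

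The 3 higher peaks assigned to Rpia lie at the end of the immunoglobulin kappa locus, whose segments are not protein-coding spans of the annotation. The first (chr6:70726421-70726921) covers the whole constant region Igkc (320 bp), and held 5.67, 6.20 and 6.80 CPM in WT CC and 10.5, 11.1 and 10.1 in HOMO CC. The groups did not overlap, and the log2 fold change was 0.75 ± 0.16 (adjusted p = 0.0188). The others lie 8.9 and 13.9 kb beyond Igkc. At the nearer one, WT libraries held 44.2, 41.7 and 44.5 and HOMO libraries 48.5, 57.3 and 57.1 (adjusted p = 0.0465), and at the farther one 13.1, 16.3 and 16.3, and 21.7, 23.2 and 21.9 (adjusted p = 0.0271). The light chain loci were then read as wholes, a choice made after these peaks were seen. Across Igk and 50000 bp on either side, 4 of 87 peaks (4.6%) were called higher and 0 lower, with a median log2 fold change of 0.39, and across Igl 3 of 24 (12.5%) and 0, with a median of 0.50. In all autosomal peaks 0.584% were called higher and 2.19% lower, and the median was 0.02. The heavy chain locus Igh had 14 peaks, 0 called and a median of 0.07.

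The median deviation of the Igk peaks from their mean over the 6 libraries was -0.16, -0.09 and -0.27 in WT CC 1 to 3 and 0.07, 0.37 and 0.09 in HOMO CC 1 to 3. For Igl it was -0.26, -0.13 and -0.28, and 0.22, 0.36 and 0.20. Every HOMO library was above every WT library at both light chain loci, while at Igh the 2 groups overlapped. Over the 22 alternative settings the median stayed between 0.25 and 0.46 for Igk and between 0.40 and 0.59 for Igl, with both lowest values in fits without HOMO CC 2, in which none of the 7 calls remained. In CB the medians were 0.38 and 0.60, with 5 and 7 peaks called higher and 0 lower. Peaks in the 2 loci share a locus and are not independent measurements. The Iglv3 segment peak (chr16:19241481-19241981) held 12.2, 14 and 15.2 CPM in WT CC and 22.9, 23.3 and 21.0 in HOMO CC, a log2 fold change of 0.69 ± 0.13 (adjusted p = 0.009).

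Position in the genome went with direction. Peaks were called gene ends when the midpoint lay within 1000 bp of either end of a protein-coding gene. Of 15681 such peaks, 888 (5.66%) were called lower and 32 (0.204%) higher, which is 60.4% of all losses and 8.16% of all gains. Inside genes 397 (1.28%) of 31093 peaks were lower and 207 (0.666%) higher, and between genes 186 (0.912%) and 153 (0.751%) of 20385. The excess of losses between genes turned to an excess of gains in 4 of 22 settings, among them the replicate block (711 lower, 995 higher) and the fit without HOMO CC 1 (360 and 366). The median log2 fold change was -0.07 at gene ends, 0.06 inside genes and 0.05 between genes. Of the 9621 peaks that overlap a promoter window, 342 (3.55%) were lower and 21 (0.218%) higher, with a median of -0.04. Called losses at gene ends were concentrated at intermediate levels. Between a log2 CPM of 2 and 5, 795 of 8676 were lower and 17 higher, with a median of -0.18. Weaker gene ends had a similar shift but larger standard errors. Between 1 and 2 the median was -0.21 (typical standard error 0.28), with 60 of 1174 called lower and 4 higher. There HOMO CC 1 lay within the WT range (0.111, and 0.105 to 0.127 in WT). At 5 or more, 29 of 5541 were lower and 11 higher, with a median of 0.03. With loess offsets the counts at 5 or more were 76 and 9, and the median was -0.04. These level limits were chosen after the values were seen.

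At gene ends of intermediate level, the median deviation from the mean of the 6 libraries was 0.086, 0.071 and 0.132 in WT CC 1 to 3 and -0.047, -0.128 and -0.071 in HOMO CC 1 to 3. The groups did not overlap, and the median log2 fold change stayed between -0.22 and -0.16 in all 22 settings, among them the fit without HOMO CC 2 (-0.16). At intergenic peaks of log2 CPM 4 or more, 98 of 3710 were called higher and 9 lower, with a median of 0.13. There the deviations were -0.061, -0.059 and -0.054 in WT and -0.058, 0.105 and 0.150 in HOMO, so HOMO CC 1 lay with the WT libraries. HOMO CC 1 is the shallowest of the 6 libraries and HOMO CC 3 the deepest. With log2 library total as a covariate, the gene ends gave 1820 lower and 77 higher (median -0.18) and these intergenic peaks 57 and 437 (median 0.13), and the part of depth in the called counts was not tested further.

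**Figure D3:**
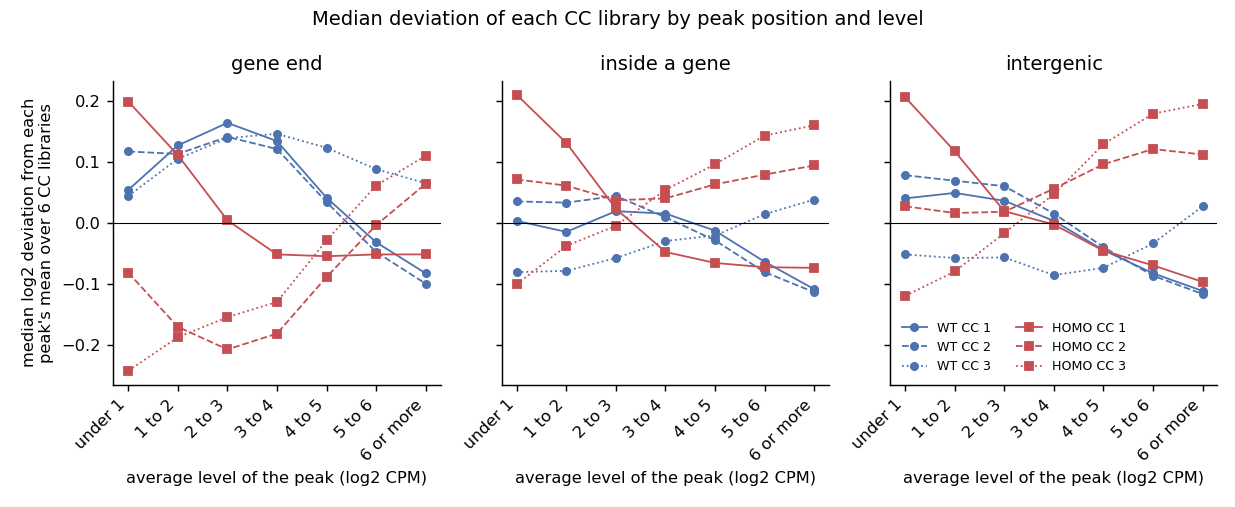
Median log2 deviation of each CC library from the mean of the 6 libraries (y axis), by average level of the peak (x axis, log2 CPM) for gene ends, peaks inside genes and intergenic peaks, with circles for WT CC and squares for HOMO CC. At gene ends between 2 and 5 the WT medians lie above the HOMO medians, while in intergenic peaks of high level HOMO CC 1 runs with WT CC 1 and WT CC 2.

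As a share of all counts, gene ends took 44.1%, 43.9% and 45.9% in WT CC and 43.6%, 42.5% and 43.2% in HOMO CC. The groups did not overlap, and the means were 44.6% ± 1.12 and 43.1% ± 0.519 (SD, n = 3). The difference of -1.53 percentage points had an exact two-sided permutation p of 0.1, the smallest that 3 against 3 libraries allow. With gene ends defined by 500 bp, the difference was -0.79 points (exact permutation p = 0.3).

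The other peaks of genes with a loss at an end were read too. The 849 genes with a gene end called lower had 2801 other peaks, of which 45 (1.61%) were called lower and 25 (0.893%) higher, with a median log2 fold change of 0.02, beside 1.18%, 0.67% and 0.06 over all assigned peaks that are not gene ends. Close neighbours went the same way, with 134 adjacent pairs of called peaks within 5000 bp in the same direction and 0 in opposite directions. Peaks so close are not independent measurements, and 79.0% of all calls were lower. In 30 genes peaks were called in both directions, and in 20 of these a gene end was lower and another peak higher, in 0 the reverse. Few reverse cases were possible, since only 32 gene ends were called higher and 888 lower. At Jak1, a cytokine receptor kinase, the gene end (chr4:101264355-101264855) held 15.9, 14.9 and 16.9 CPM in WT and 10.9, 8.41 and 8.40 in HOMO (adjusted p = 0.0214). An intragenic peak (chr4:101168085-101168585) held 12.7, 13.7 and 11.8 in WT and 17.3, 20.7 and 22.5 in HOMO (adjusted p = 0.0135). At Wipf1, a partner of the actin regulator WASP, the gene end had a log2 fold change of -1.27 ± 0.21 and an intragenic peak 0.37 ± 0.09 (adjusted p = 0.00584 and 0.0292).

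Lists of genes, chosen with earlier results of these data known, were read against the background of 2.19% lower and 0.584% higher and the median of 0.02. Among 479 peaks at germinal center transcription factors, 9 (1.88%) were higher and 0 lower, with a median log2 fold change of 0.17 (5 and 0 with only the 6 CC libraries in the fit). They lay at Ikzf3 (2 peaks), Bach2 (2), Pou2f1, Pou2af1, Irf8, Pax5 and Ikzf1, which set B cell and germinal center identity. Irf8, a factor of germinal center B cells, had a gene-end peak (chr8:120757066-120757566) with 27.7, 30.2 and 31.0 CPM in WT CC and 32.2, 45 and 49.1 in HOMO CC. The groups did not overlap, although HOMO CC 1 was near the WT values, and the log2 fold change was 0.53 ± 0.13 (adjusted p = 0.0295). Pou2af1, the B cell coactivator of octamer factors, rose from 6.13, 5.54 and 4.81 to 10.6, 9.75 and 8.30 in an intergenic peak (log2 fold change 0.79 ± 0.18, adjusted p = 0.0219). The per-library median deviations of the list were -0.113, -0.093 and -0.004 in WT and -0.057, 0.15 and 0.158 in HOMO, so HOMO CC 1 again lay within the WT range. The list is mostly peaks away from gene ends (442 of 479), and it was not matched for level. Of all peaks away from gene ends 0.699% were higher, with a median of 0.06. At a log2 CPM of 4 or more, 1.27% of peaks inside genes (median 0.09) and 2.64% of intergenic peaks (median 0.13) were higher. In the list 0 peaks were called without WT CC 1, without HOMO CC 2 or without HOMO CC 3.

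Of 271 light zone and CD40 peaks, 3 (1.11%) were higher and 0 lower (median 0.08), at Nfkb1, Egr3 and Cd22. Egr3, an immediate early factor, had 45.6, 47.1 and 45.6 CPM in WT and 54.9, 60.5 and 65.3 in HOMO at an intergenic peak (log2 fold change 0.39 ± 0.10, adjusted p = 0.0309). In the dark zone list 5 of 249 peaks (2.01%) were higher, 3 of them at Ccnd3, and 3 (1.2%) were lower. The lower ones lay at the gene ends of Foxo1 and Mki67 and inside Ccna2. Foxo1, a factor of the dark zone, held 23.5, 21.4 and 20.2 CPM in WT and 13.6, 16.3 and 14.6 in HOMO (log2 fold change -0.54 ± 0.13, adjusted p = 0.0321), with no overlap.

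Genes of plasma and memory cell fate gave 4 calls. In the plasma cell list 0.87% of peaks were lower and 0.87% higher, and in the memory list 0.503% and 0.503%. Over all peaks the shares were 2.19% and 0.584%. Among 115 plasma cell peaks 1 was lower, inside Sdc1, which encodes syndecan-1 (7.84, 7.52 and 9.12 CPM in WT, 4.88, 3.61 and 3.06 in HOMO, adjusted p = 0.018), and 1 higher, the promoter peak of the integrin Itga4 (52.0, 47.2 and 48.0 in WT, 63.9, 72.6 and 68.1 in HOMO, adjusted p = 0.00817). Among 199 memory precursor peaks 1 was lower, at the gene end of Nt5e, the ectonucleotidase CD73 (42.5, 39.5 and 35.7 in WT, 27.5, 31.0 and 25.9 in HOMO, adjusted p = 0.0279), and 1 higher, inside Cd38 (adjusted p = 0.039). Each of the 3 peaks given by library had groups that did not overlap.

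Few peaks of signalling and migration genes were called. Of 422 B cell receptor signalling peaks, 3 (0.711%) were higher, 2 at Csk and 1 at Vav1, and 1 (0.237%) lower (median 0.11). Over all peaks 0.584% were higher and 2.19% lower. Vav1, an exchange factor downstream of the receptor, held 3.65, 3.73 and 4.44 CPM in WT and 6.51, 6.81 and 8.03 in HOMO (log2 fold change 0.86 ± 0.19, adjusted p = 0.0186), and the loss was at the gene end of the coreceptor Cd81 (-0.69 ± 0.15, adjusted p = 0.0191). Of 196 migration peaks, 4 (2.04%) were higher and 0 lower, at Prex1, Itgal and S1pr3 (2 peaks). S1pr3, a sphingosine-1-phosphate receptor, had 13.6, 15 and 16.1 in WT and 22.2, 23.6 and 26.5 in HOMO (log2 fold change 0.70 ± 0.12, adjusted p = 0.00822). In the antigen presentation list, 9 of 21 genes had a peak, 0 of 79 peaks were called at either side, and 3 were lower and 15 higher at an unadjusted p under 0.05.

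Losses were also found at interferon genes. Of 105 peaks, 6 (5.71%) were lower and 1 (0.952%) higher, with a list median of -0.01. With only the 6 CC libraries in the fit 1 was lower and 0 higher, and 0 were called without WT CC 1, without HOMO CC 2 or without HOMO CC 3. The lower ones lay at Xaf1, Usp18, Irf1, Ddx58 and Rsad2 (2 peaks). Over the list's 32 gene ends the median was -0.17, and over all gene ends, 5.66% of which were lower, it was -0.07. All gene ends at a log2 CPM of 2 to 5 had a median of -0.18, with 9.16% lower. The list's gene ends were not matched for level. Rsad2, the antiviral enzyme viperin, had 7.14, 4.57 and 4.91 CPM in WT and 2.96, 2.76 and 3.22 in HOMO at the promoter shown above (log2 fold change -0.87 ± 0.22, adjusted p = 0.0343). Xaf1 had 9.70, 8.49 and 5.77 in WT and 3.84, 4.43 and 3.49 in HOMO (-1.01 ± 0.22, adjusted p = 0.0199), and Usp18, which restrains interferon receptor signalling, 24.0, 19.0 and 20, and 17.0, 11.8 and 12.8 (-0.64 ± 0.15, adjusted p = 0.0287). All 3 separated the groups. The higher peak was near Ifitm3 (0.68 ± 0.15, adjusted p = 0.0224).

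In the G1 and cell cycle list, 4 of 143 peaks (2.8%) were lower and 3 (2.1%) higher. The losses lay at the kinase inhibitors Cdkn2c, Cdkn2a and Cdkn1b and at Cdk2, and the gains at Ccnc (2 peaks) and E2f2. Cdkn2a, whose promoter is shown above, held 17.5, 14.9 and 18.5 CPM in WT and 12.4, 10.9 and 9.64 in HOMO (log2 fold change -0.65 ± 0.15, adjusted p = 0.0269), with no overlap. The death gene list had 4 of 123 (3.25%) lower and 1 (0.813%) higher, beside 2.19% and 0.584% of all peaks. Pmaip1, encoding the BH3-only protein Noxa, held 3.73, 3.37 and 5.60 in WT and 1.18, 1.86 and 1.51 in HOMO (-1.44 ± 0.28, adjusted p = 0.011), and Bik, another BH3-only gene, 13.4, 12 and 11.7, and 8.58, 5.47 and 4.39 (-1.10 ± 0.21, adjusted p = 0.0111). Cflar, which blocks caspase activation at death receptors, rose (0.55 ± 0.14, adjusted p = 0.0386).

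Peaks at the other subunits of the remodelers were called only lower: 4 of 204 (1.96%), below the 2.19% of all peaks. They lay at Dpf1, Dpf2, Ss18 and Brd7, the last a partner of Pbrm1 in PBAF. Brd7 held 11.1, 13.4 and 10.5 CPM in WT and 6.80, 5.18 and 7.77 in HOMO (log2 fold change -0.82 ± 0.19, adjusted p = 0.0228), and Dpf2 9.24, 10.7 and 9.75, and 5.47, 4.77 and 5.76 (-0.90 ± 0.17, adjusted p = 0.011). The groups did not overlap at either. In the list of chromatin modifiers mutated in B cell lymphoma, 4 of 162 (2.47%) were lower, near the 2.19% of all peaks, and 0 higher. They lay at Kmt2d, Kmt2c and Chd8, of which Kmt2d and Kmt2c encode histone H3 methyltransferases. Kmt2d held 9.16, 9.81 and 8.16 in WT and 4.58, 4.28 and 4.39 in HOMO (-1.04 ± 0.20, adjusted p = 0.011). Among metabolic regulators 6 of 139 (4.32%) were lower and 0 higher. Tsc2, an inhibitor of mTOR signalling, held 29.0, 27.3 and 28.5, and 19.5, 14.4 and 15.5 (-0.81 ± 0.13, adjusted p = 0.00566). The AP-1 and immediate early list had 1 of 116 (0.862%) lower, near Dusp1, and a median of -0.04 whose sign changed between settings.

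Markers of other cell types were read for the whole lists. Lower calls made up 3.23% of T cell, 4.76% of myeloid and 9.52% of erythroid peaks, beside 2.19% of all peaks. Higher calls made up 0.971% of naive and follicular B cell peaks, beside 0.584% of all peaks. T cell markers had 12 of 16 genes with peaks, 1 of 31 peaks lower (Gata3) and 0 higher, and a summed level of 294 to 306 CPM in WT CC and 273 to 274 in HOMO CC. Myeloid markers (12 of 16 genes) had 3 of 63 lower (Cd14, Flt3 and Cebpe), with sums of 769 to 812 and 750 to 856, erythroid markers (7 of 13 genes) 2 of 21 lower (Nfe2 and Tal1), with 200 to 219 and 200 to 209, and natural killer markers (6 of 11 genes) 0 of 24 called, with 211 to 238 and 169 to 237. Naive and follicular B cell markers had 2 of 206 higher (Fcrl1 and Cd22), a median of 0.16, and sums of 2270 to 2530 and 2410 to 2760. The T cell sum moved with genotype, and its part in the other results was not tested.

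**Figure D4:**
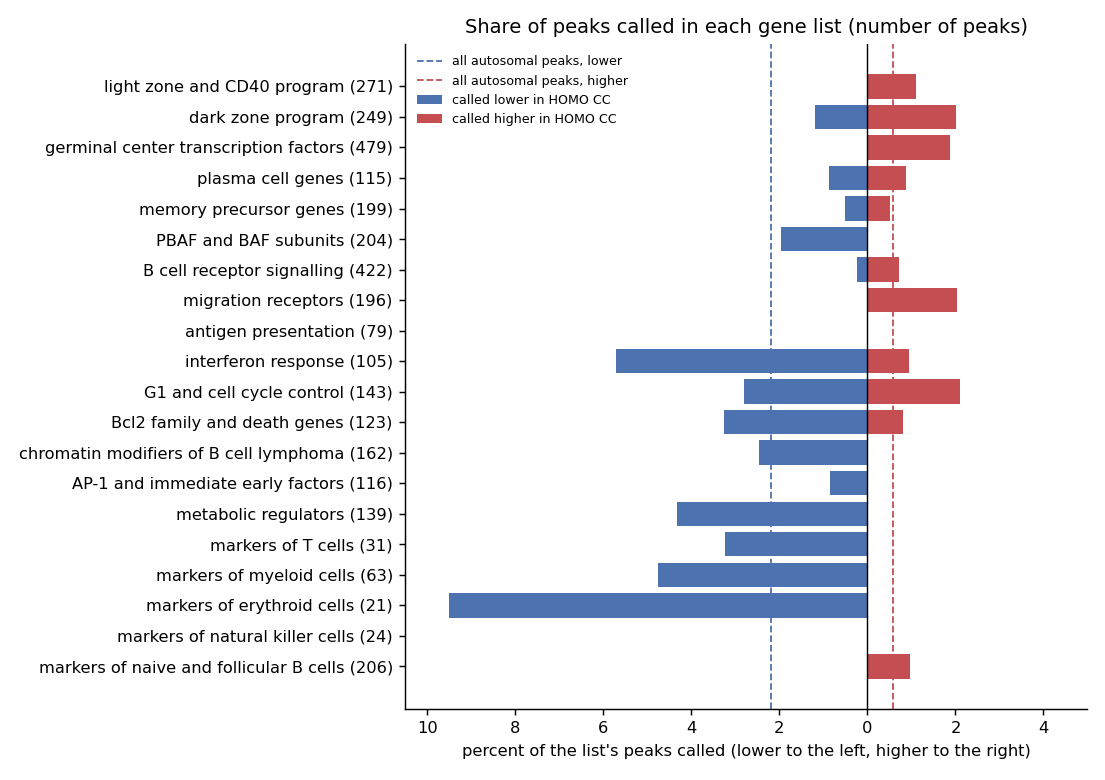
Share of each list's peaks called lower (bars to the left) and higher (to the right) in HOMO CC, in percent of the peaks given in brackets, with dashed lines at 2.19% and 0.584% for all autosomal peaks. Germinal center transcription factors have 0% lower and 1.88% higher, and interferon genes 5.71% lower; the erythroid bar stands for 2 of 21 peaks.

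The CB libraries, which did not enter the CC contrast as values but share the estimate of spread, gave the same directions. At the 1471 peaks lower in CC, 1470 had a negative fold change in CB, 1074 (73.0%) were called lower there, and the CB libraries separated in 1293 (87.9%), where 3.88% of all peaks were called lower in CB and 13.2% separated. The medians were -0.81 in CC and -0.74 in CB. At the 392 peaks higher in CC, all 392 had a positive fold change in CB, 172 (43.9%) were called higher and 320 (81.6%) separated, against 0.785% and 10.2% of all peaks, with medians of 0.62 and 0.46. A smaller size in CB is built into picking peaks by their CC call. The labels do not say whether CB and CC libraries came from the same mice, so the 2 sets may not be independent.

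No peak was called for a difference between the CC and CB effects: 0 by edgeR, by DESeq2 and by limma-voom, with 790 (1.18%) at an unadjusted p under 0.05 in edgeR. That share is below what this threshold gives when nothing differs, so the test was conservative here. No fit paired CB with CC libraries within a genotype, and the cause of the low share was not tested. Among the peaks named, the Kmt2d loss had a log2 fold change of -1.04 in CC and -0.40 in CB (adjusted p = 0.26 in CB), and the gain inside Ikzf3, a lymphoid zinc finger factor, 0.51 and 0.14 (adjusted p = 0.517 in CB). Such pairs are not shown to differ, and the missing calls do not show that the effects are equal.

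**Figure D5:**
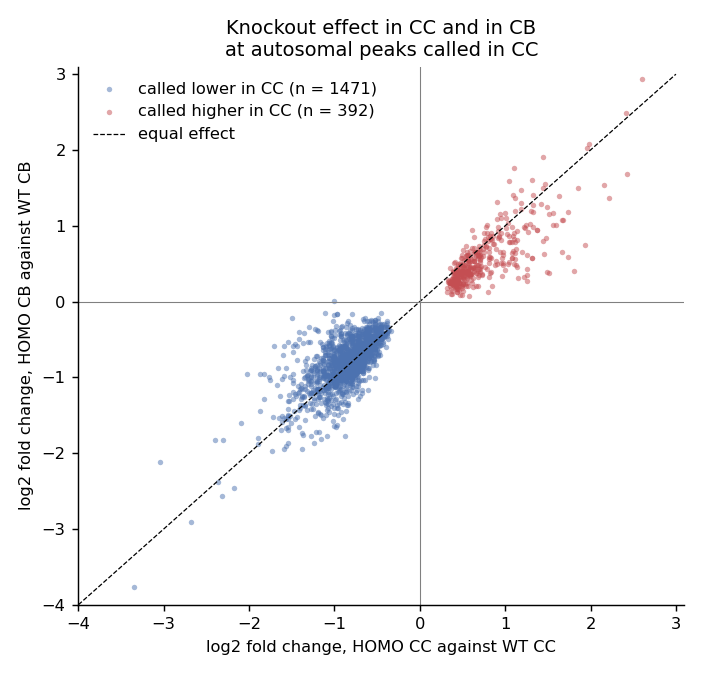
Log2 fold change of HOMO against WT in CC (x axis) and CB (y axis) at the 1863 autosomal peaks called in CC, with a dashed line for equal effects. All but 1 of the points have the same sign in both populations; 3425401B19Rik lies at -3.35 in CC and -3.76 in CB, and Arhgap22 at -3.04 and -2.11.

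Just within the threshold stood a peak near Ublcp1 (log2 fold change 0.41 ± 0.11, adjusted p = 0.0499), the gene end of Slc1a3 (-1.42 ± 0.38, adjusted p = 0.0499) and a peak inside Abr (0.48 ± 0.13, adjusted p = 0.05, below the threshold before rounding), and just outside it Ric1 (-0.57 ± 0.16, adjusted p = 0.0501) and Chsy1 (0.42 ± 0.11, adjusted p = 0.0502).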

How the data were processed

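Omni-ATAC-seq of spleen germinal center B cells was deposited by the authors as raw counts per peak in 12 libraries on mm10. Per the labels, libraries were made with a Zymo kit and KAPA HiFi polymerase. Tools listed in the submitters' processing notes, with no role stated, are deepTools, BWA, FastQC and R 4.2.1. Not given in the sources used here: how peaks were called and counted, whether duplicates were removed or Tn5 cuts shifted, and whether libraries were pooled.

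Counts were fitted with edgeR 4.0.16 (R 4.3.3): TMM factors, a mean for each of 4 groups, all 12 libraries in the fit, two-sided quasi-likelihood F tests with robust dispersions, Benjamini-Hochberg adjustment over 68689 peaks, calls at an adjusted p under 0.05. A standard error is the log2 fold change divided by the square root of F. CPM uses TMM factors; the average log2 CPM adds 2 counts. As alternatives, DESeq2 1.42.0 and limma 3.58.1 were run. Tables used Python 3.11.15, pandas 2.3.3, numpy 2.4.6 and scipy 1.17.1, and figures matplotlib 3.10.9.

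Peaks were assigned to the nearest of 21631 protein-coding RefSeq spans (GRCm38.p6) within 50000 bp, which gave 13879 genes for 62666 autosomal peaks. The rule named the 12 called peaks of smallest p per direction (1 per gene, log2 CPM of at least 1, groups apart), the 6 genes with most called peaks, up to 4 called genes per list and direction, the peaks of Pbrm1, and peaks at the threshold. Members, lists (20) and limits were chosen with earlier results of these data known. The immunoglobulin loci and genes called in both directions were chosen after their values were seen. A few genes of the lists are not reported here.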

Additional observations from a re-analysis of the deposited data

How the results depend on the processing

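The count of calls depended on the test, on single libraries and on the terms of the fit, while losses outnumbered gains over all peaks in all 22 settings. Between genes, gains outnumbered losses with limma-voom (418 lower, 428 higher), the replicate block (711, 995), library total as a covariate (642, 738) and without HOMO CC 1 (360, 366), and away from gene ends with the block (2046, 2306). Lower and higher calls were 2368 and 712 by DESeq2, 2850 and 1029 by limma-voom, 3861 and 1834 with log2 library total as a covariate, and 145 and 26 in a test against a 1.2-fold change. With only the 6 CC libraries they were 1129 and 218, with 2 higher in the dark zone list, 2 lower in the cell cycle list and 2 lower at chromatin modifiers. With 1 CC library left out they ranged from 11 to 2479 lower and from 6 to 888 higher, the lowest without HOMO CC 2. Leaving out both WT libraries numbered 2 gave 240 and 81, both HOMO libraries numbered 1 gave 3143 and 1223, and both HOMO libraries numbered 2, an alternative added after seeing the data, gave 8 and 2. The cause of these shifts was not tested.

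Replicate numbers were checked as possible pairs. Deviations of same-numbered WT CC and HOMO CC libraries correlated at 0.18, 0.02 and 0.40, not above 0.1 in every pair, and WT CC 2 correlated best with HOMO CC 1, so the numbers were not treated as pairs. With the replicate block, 4465 peaks were lower and 2567 higher, and the share of calls that are lower was 63.5% in place of 79.0% (67.8% with library total as a covariate). The difference of effects stayed at 0 calls with the block.

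RLE factors, library totals, loess offsets, TMM from peaks that are not gene ends, a level filter, no robust dispersions and autosomal peaks alone moved both counts by less than 1.5 times. The Pbrm1 start, not called in any setting, ranged from -0.26 to 0.09 with 1 CC library left out (0.09 without WT CC 3, 0.02 without HOMO CC 2) and was 0.02 without both HOMO libraries numbered 2. Of 183 peaks tracked, 166 lost their call without HOMO CC 2, with their direction kept. Calls inside genes at log2 CPM 4 or more, 76 lower and 88 higher, were mostly lower in 10 settings and mostly higher in 11. Depth limits low peaks most: the median standard error was 0.36 below a log2 CPM of 1.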
